A study of Mus musculus with 6 samples.

Results

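Collagens, laminins and the linkers that tie them together make up most of the extracellular matrix on which an epithelium rests. Here they were described in colon tumors of mice that had lost Apc alone or Apc and Tgfbr2 together. The group was chosen by name alone: every gene whose probe set carries a symbol of the form Col, number, a, number, or Lama, Lamb or Lamc and a number, together with Nid1, Nid2, Hspg2 and Agrn. By this rule 58 of the 19938 genes with a probe set of a single symbol were members, 11 of them fibrillar collagens, 9 network collagens, 10 laminin chains, 4 basement membrane linkers, 6 beaded filament collagens, 9 collagens of the FACIT family and 9 other collagens.

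A basement membrane is a thin sheet under the epithelium and around muscle, nerve and vessels, built of a laminin network and a collagen IV network that nidogens and the proteoglycans perlecan and agrin hold together. Laminins are trimers of an α, a β and a γ chain and bind integrins and dystroglycan on the cell. Fibrillar collagens form the cables of the stroma and are made mainly by fibroblasts, whereas several laminin chains of the gut are made by the epithelium itself. TGF-β is a well known inducer of collagen genes in fibroblasts.

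RNA came from tumors cut out by laser. Of these, 3 were from mice with the genotype CDX2P-G19Cre;Apcflox/flox;Tgfbr2flox/flox, here called double knockout, and 3 from mice with the genotype CDX2P-G19Cre;Apcflox/flox, here called Apc knockout. For strain, the paper names C57BL/6J only for the floxed Tgfbr2 line, which was crossed with the floxed Apc and Cre lines. All mice were 3 weeks old, and each tumor gave 1 Affymetrix Mouse Gene 1.0 ST array. Homozygous floxed Apc and the Cre transgene were thus shared by both groups, and they differed in the floxed Tgfbr2 alleles. The CDX2 promoter fragment drives Cre in the colon epithelium, and a frameshift in the Cre gene leaves its expression to chance reversion, so that the deletion is a mosaic one of the epithelium and fibroblasts, muscle and other stromal cells are not its target. Signals were log2 values after robust multichip analysis (RMA), and differences are given as double knockout minus Apc knockout on the log2 scale.

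Tgfbr2 was at 10.98, 10.35 and 10.47 in the double knockout tumors and at 11.35, 11.37 and 11.09 in the Apc knockout tumors. Its probes were not placed against the deleted exon, so that these levels do not check the genotype. Over all probe sets, double knockout tumor 2 was the least like the others, with Pearson correlations of 0.956 to 0.968 to the other tumors against 0.980 to 0.988 among those. Epithelial markers were bright in every tumor, and the summed signal of 10 of them was between 15.87 and 16.29 in double knockout tumors and between 15.77 and 16.03 in Apc knockout tumors. The epithelial transcription factor Cdx2 was an exception, at 8.24 in double knockout tumor 2 and between 10.08 and 11.18 in the other tumors.

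The sequences just upstream of 4 members are shown before their values, because Lama5 and Lamb2 were the laminin chains whose groups did not overlap and because Col1a2 and Col3a1, whose products join in stromal fibers, followed each other from tumor to tumor. They are the 250 bases before the annotated start from RefSeq, build GRCm38.p6, printed 5′ to 3′ on the strand of the gene. Capitals mark 4 short motifs searched on both strands: CAGAC, a core site of Smad proteins, the transcription factors of the TGF-β pathway, TATAA (TATA box), CCAAT and GGGCGG (GC box). TATAA overlaps itself on the 2 strands in TTATAA, which counts as a match on each. Lama5 lies at chr2:180225860-180226109 on the minus strand, Lamb2 at chr9:108479612-108479861, Col1a2 at chr6:4505368-4505617 and Col3a1 at chr1:45311288-45311537, these 3 on the plus strand.
Lama5: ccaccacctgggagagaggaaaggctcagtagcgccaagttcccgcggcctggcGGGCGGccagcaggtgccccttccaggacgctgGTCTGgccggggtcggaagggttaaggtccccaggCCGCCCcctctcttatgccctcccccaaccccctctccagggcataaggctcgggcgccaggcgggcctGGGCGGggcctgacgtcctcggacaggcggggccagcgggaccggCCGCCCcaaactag
Lamb2: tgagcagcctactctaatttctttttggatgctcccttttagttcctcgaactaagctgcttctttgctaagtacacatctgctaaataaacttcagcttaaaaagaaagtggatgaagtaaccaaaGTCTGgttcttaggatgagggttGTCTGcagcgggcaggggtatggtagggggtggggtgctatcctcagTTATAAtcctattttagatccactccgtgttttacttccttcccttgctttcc
Col1a2: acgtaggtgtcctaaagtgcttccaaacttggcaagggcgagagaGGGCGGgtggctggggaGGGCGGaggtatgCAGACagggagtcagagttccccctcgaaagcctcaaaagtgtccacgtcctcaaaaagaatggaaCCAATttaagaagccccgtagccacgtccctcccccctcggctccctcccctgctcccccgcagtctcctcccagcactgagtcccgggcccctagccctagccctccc
Col3a1: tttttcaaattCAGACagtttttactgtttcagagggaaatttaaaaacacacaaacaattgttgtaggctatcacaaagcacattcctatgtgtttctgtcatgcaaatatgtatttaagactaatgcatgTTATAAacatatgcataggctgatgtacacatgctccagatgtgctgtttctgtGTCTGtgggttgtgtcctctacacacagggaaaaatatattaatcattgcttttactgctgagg

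The window of Lama5 had 72.4% G and C, 19 CpG dinucleotides, 4 matches to GGGCGG and 1 to CAGAC. That of Lamb2 was at 43.6% with 3 CpG dinucleotides, and held CAGAC at 2 positions and TATAA. Col1a2 (62%) had GGGCGG at 2 positions, CAGAC and CCAAT, and Col3a1 (35.2%, no CpG) had CAGAC at 2 positions and TATAA. Of the 58 members, 43 had a window in the table. CAGAC occurred in 19 of them and in 42.1% of all 27025 windows of this length, TATAA in 9 (23.5% of all), CCAAT in 14 (34.5%) and GGGCGG in 26 (32.9%). CAGAC was in the windows of all 5 laminin chains with an entry (Lama2, Lama5, Lamb1, Lamb2 and Lamb3), and the other laminin chains had no window. It was in 5 of 8 windows of fibrillar collagens, 3 of 5 of FACIT collagens and 2 of 6 of beaded filament collagens. For network collagens it was in 2 of 8, for multiplexin, anchoring and transmembrane collagens in 2 of 8, and for linkers in 0 of 3. These matches describe the letters in these windows.

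Of 10 laminin chains, 8 were lower with double knockout than with Apc knockout alone, with a median log2 difference of −0.35. The median was 0.00 for fibrillar collagens, 0.07 for network collagens and 0.01 over all 19506 probe sets tested, of which 9310 were lower. The classes also differed in signal level. Mean signals lay at the 52nd to 90th percentile for laminins, the 43rd to 92nd for fibrillar and the 25th to 82nd for network collagens. The median range over the tumors was 1.02, 0.68 and 0.47 in the same order. The part of signal level in these medians was not tested. Lama5 and Lamb2, the α5 chain of the adult epithelial basement membrane and a β chain that can take the place of β1, were lower in every double knockout tumor than in any Apc knockout tumor. Over the whole group, 32 members were lower and 26 higher. Their median was −0.01, with differences from −1.27 to 0.39. With each array centred on its median 25 members were lower, among them 8 laminin chains and 2 fibrillar collagens. That centring moved the whole array the same way: 7907 of the 19506 probe sets tested were then lower, with a median of 0.04. No member passed an adjusted p of 0.05 in limma, where the share over all probe sets was 0%, and the lowest adjusted p among members was 0.821. The unpaired t-test of the methods also passed 0. At an unadjusted p under 0.05 in limma, 3 members were lower (Lamb2, Col9a3 and Col18a1), or 5.17% of the group against 3.82% of all probe sets tested. None was higher, against 1.78% of all. The groups did not overlap for 3 members that were lower (Lama5, Lamb2 and Col9a3), or 5.17% against 6.94% of all, and for 1 that was higher (Col20a1), or 1.72% against 5.25%. These shares lay near or under the background, so they set the group apart in neither direction.

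**Figure D1:**
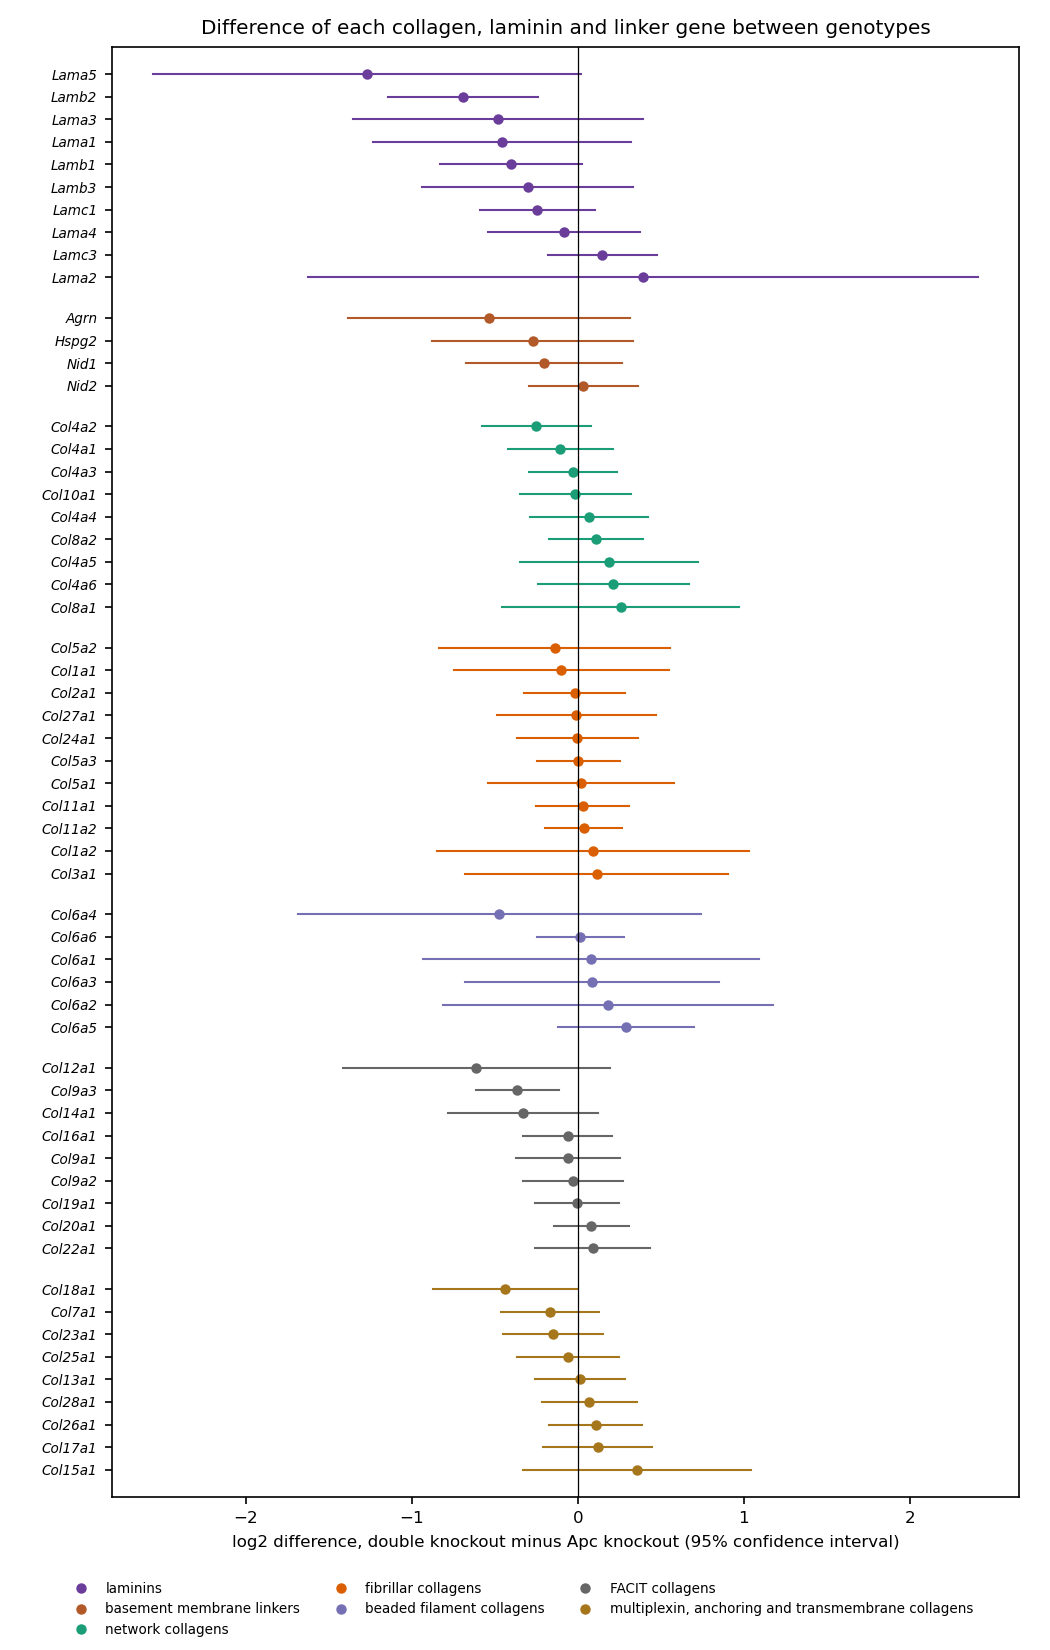
Log2 difference between double knockout and Apc knockout tumors (horizontal axis) for each of the 58 genes (rows, by class), with points for the limma estimate and lines for its 95% confidence interval, from 3 tumors in each group. Among laminin chains 8 of 10 points lie left of 0, and the fibrillar collagens lie between −0.14 and 0.11.

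Lama5 was at 10.63, 8.89 and 10.86 in double knockout tumors 1 to 3 and at 11.21, 11.20 and 11.77 in Apc knockout tumors 1 to 3. Double knockout tumor 2 was the lowest by far, and the other double knockout tumors also lay under the Apc knockout tumors. The difference was −1.27 (standard error 0.53, 95% confidence interval −2.56 to 0.02), or 2.41-fold lower (unadjusted p = 0.0527, adjusted p = 0.821, limma), and the exact permutation test gave p = 0.1, the smallest two-sided p that 3 tumors against 3 allow. Without double knockout tumor 2 it was −0.65. In these bulk samples, fewer cells that make a chain and less RNA in each of them cannot be told apart.

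Lamb2 was at 9.72, 9.22 and 9.83 in double knockout tumors and at 10.29, 10.13 and 10.42 in Apc knockout tumors. Every double knockout tumor lay under every Apc knockout tumor. The difference was −0.69 (standard error 0.19), or 1.62-fold lower (unadjusted p = 0.00923, adjusted p = 0.821, limma). It stayed between −0.81 and −0.51 when any tumor was left out. Lamb1, the β chain of most embryonic and epithelial laminins, was at 10.73, 10.31 and 10.57 against 11.04, 10.65 and 11.13, and the groups met where Apc knockout tumor 2 lay below double knockout tumor 1. Its difference was −0.40 (standard error 0.18, unadjusted p = 0.0599, limma). Lamc1, the γ chain that pairs with both of these β chains, was at 10.88, 10.60 and 10.57 against 11.07, 10.73 and 10.98, a difference of −0.24 (standard error 0.14). Lama5, Lamb1 and Lamc1 form the main laminin under the mature gut epithelium. All 3 had their lowest signal in a double knockout tumor and their highest in an Apc knockout tumor. The same held for Lama1, Lamb2 and Lamb3, but not for Lama2, Lama3, Lama4 or Lamc3. It also held for members of other classes, among them Agrn, Nid1, Col4a1, Col4a2 and Col5a2, so it was not particular to this laminin.

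The chains of the anchoring laminin of epithelia behaved less evenly. Lama3, its α chain, was at 9.29, 9.53 and 9.79 in double knockout tumors and at 10.14, 9.26 and 10.65 in Apc knockout tumors, with the lowest and the highest signal both in Apc knockout tumors. Lamb3, its β chain, was at 10.10, 10.93 and 10.20 against 10.79, 10.40 and 10.94, and double knockout tumor 2, the lowest for Lama5, was here level with the highest Apc knockout tumor. The differences were −0.48 (standard error 0.36) for Lama3 and −0.30 (standard error 0.26) for Lamb3. Lama1, an α chain typical of the embryo, was at 9.27, 8.04 and 8.66 against 9.18, 8.83 and 9.34 (difference −0.46, standard error 0.32).

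**Figure D2:**
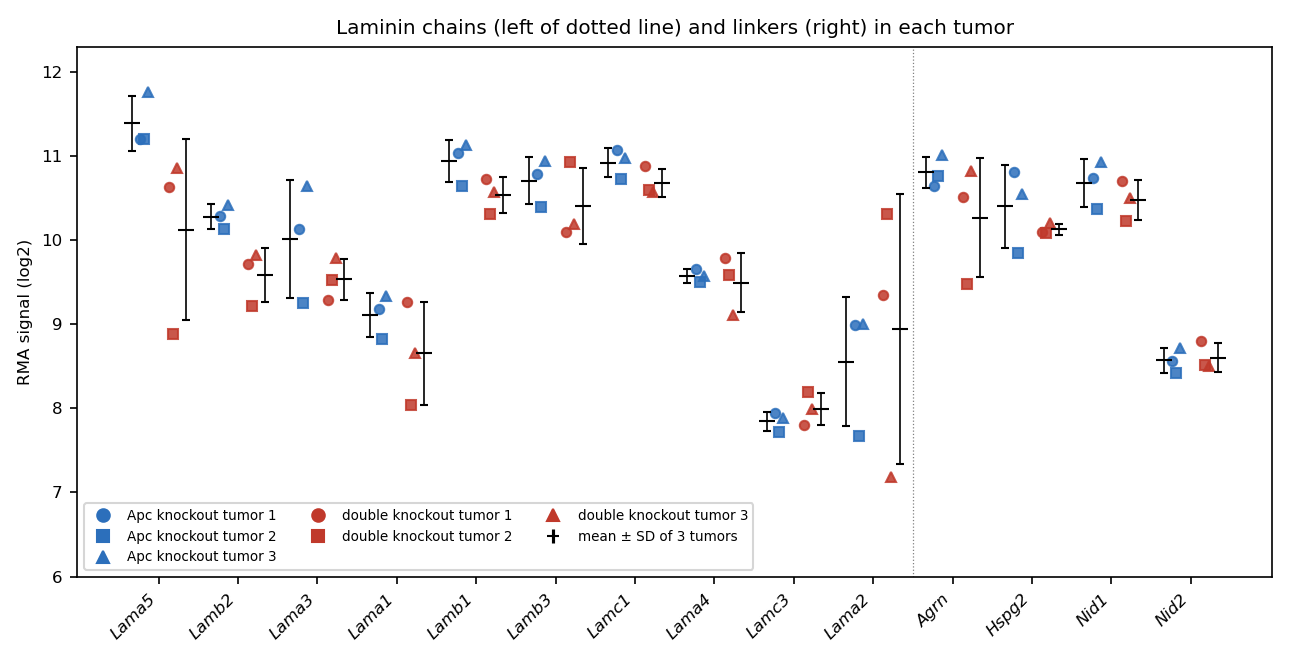
Log2 RMA signal (vertical axis) of 10 laminin chains and 4 linkers (horizontal axis), 1 point per tumor with its number as the shape, Apc knockout in blue and double knockout in red, with bars for the mean ± SD of 3 tumors. For Lama5 and Lamb2 the red and blue points do not overlap, and the points of Lama2 spread over 3.13 log2 units with the genotypes mixed.

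Lama2, the α chain around muscle and Schwann cells, went its own way. It was at 9.35, 10.31 and 7.18 in double knockout tumors and at 8.99, 7.67 and 9.01 in Apc knockout tumors. Its range of 3.13 was the widest of all 58 members, double knockout tumors held both ends, and the difference of 0.39 (standard error 0.83) became −0.29 without double knockout tumor 2. Myh11, the smooth muscle myosin heavy chain, was highest and lowest in the same tumors, at 9.27, 11.06 and 8.12 against 9.19, 8.38 and 9.17. Of 12 smooth muscle markers, 11 were highest in double knockout tumor 2, but 6 were lowest in double knockout tumor 3 and 5 in Apc knockout tumor 2, which also had the lowest sum. Their summed signal ranged from 12.31 to 14.25 in double knockout tumors and from 12.25 to 12.81 in Apc knockout tumors. Their part in the level of Lama2 was not tested. Lama4, of vessels and muscle, differed by −0.08 and Lamc3 by 0.15.

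Among the linkers, Agrn, the proteoglycan agrin, was at 10.51, 9.48 and 10.83 in double knockout tumors and at 10.65, 10.76 and 11.01 in Apc knockout tumors. Apart from double knockout tumor 2 the groups lay side by side: the difference was −0.54 (standard error 0.35) over all tumors and −0.14 without that tumor. Hspg2, which encodes perlecan, was tight in the double knockout tumors (10.10, 10.09 and 10.21), inside the spread of the Apc knockout tumors (10.81, 9.85 and 10.55). Nid1, the nidogen that bridges laminin and collagen IV, was at 10.70, 10.23 and 10.50 against 10.74, 10.37 and 10.93. The differences were −0.27 (standard error 0.25) for Hspg2, −0.20 (standard error 0.19) for Nid1 and 0.03 (standard error 0.14) for its relative Nid2.

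Collagen IV, the network collagen of basement membranes, showed no shift of the size seen in Lama5. Col4a1 was at 10.08, 9.79 and 9.97 in double knockout tumors and at 10.08, 9.89 and 10.18 in Apc knockout tumors, and Col4a2, its partner in the common trimer, at 9.86, 9.55 and 9.73 against 10.05, 9.78 and 10.05. Both chains, whose genes are neighbors on chromosome 8, were lowest in double knockout tumor 2. The differences were −0.11 (95% confidence interval −0.42 to 0.21) and −0.25 (−0.58 to 0.08). Col4a5 and Col4a6, another neighboring pair whose chains occur around smooth muscle, had differences of 0.19 (standard error 0.22) and 0.21 (standard error 0.19). Both were lower in Apc knockout tumors 1 and 2 (7.07 and 7.04 for Col4a5, 6.53 and 6.64 for Col4a6) than in Apc knockout tumor 3 (7.77 and 7.12) and the double knockout tumors (7.37 to 7.63 and 6.86 to 7.18). Col8a1, a short-chain collagen of vessel walls, was at 8.22 in double knockout tumor 2 and at 7.07 to 7.71 elsewhere. The 4 other network collagens, Col4a3, Col4a4, Col8a2 and Col10a1, differed by −0.03 to 0.11.

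Fibrillar collagens varied from tumor to tumor within each genotype. Col1a1, the main chain of type I collagen, was at 11.37, 11.11 and 10.69 in double knockout tumors and at 11.26, 10.69 and 11.51 in Apc knockout tumors. Col1a2, its partner chain, was at 10.91, 10.98 and 9.85 against 10.52, 9.97 and 10.97, and Col3a1, of the thin reticular fibers, at 10.77, 10.90 and 9.94 against 10.49, 9.96 and 10.82. For all 3 genes double knockout tumor 3 and Apc knockout tumor 2 were the lowest, 1 of each genotype. The differences between genotypes were −0.10 (95% confidence interval −0.75 to 0.55), 0.09 (−0.85 to 1.03) and 0.11 (−0.68 to 0.91). All 3 intervals spanned 0, and each difference changed sign when some tumor was left out. Col5a2, a regulator of fiber width whose gene neighbors Col3a1, was at 8.89, 8.95 and 8.07 against 8.74, 8.47 and 9.12 (difference −0.14, standard error 0.29). The remaining 7 fibrillar collagens, among them the cartilage collagens Col2a1 and Col11a1, differed by −0.02 to 0.03, and Apc knockout tumor 2 was the lowest tumor for 6 of them and Apc knockout tumor 3 the highest for all 7.

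Double knockout tumor 3 and Apc knockout tumor 2 were the lowest pair for 6 of 11 fibrillar collagens, 3 of 6 beaded filament collagens and 4 of 9 network collagens, against 7.88% of all probe sets tested. This held for 2 of 10 laminins, 1 of 9 FACIT collagens and 0 of the 9 multiplexin, anchoring and transmembrane collagens. The same pair was lowest for 8 of 12 smooth muscle markers and 3 of 10 fibroblast markers. Dcn, the fibroblast proteoglycan decorin, was at 10.00 in double knockout tumor 3 and between 11.92 and 12.34 in the other tumors. The summed fibroblast signal ranged from 13.58 to 14.29 in double knockout tumors and from 13.81 to 14.46 in Apc knockout tumors, and its part in the collagen levels was not tested. At the other end, Apc knockout tumor 3 had the highest signal for 36 of the 58 members (62.1%, against 24.1% of all probe sets tested) and for 9 of 11 fibrillar collagens.

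**Figure D3:**
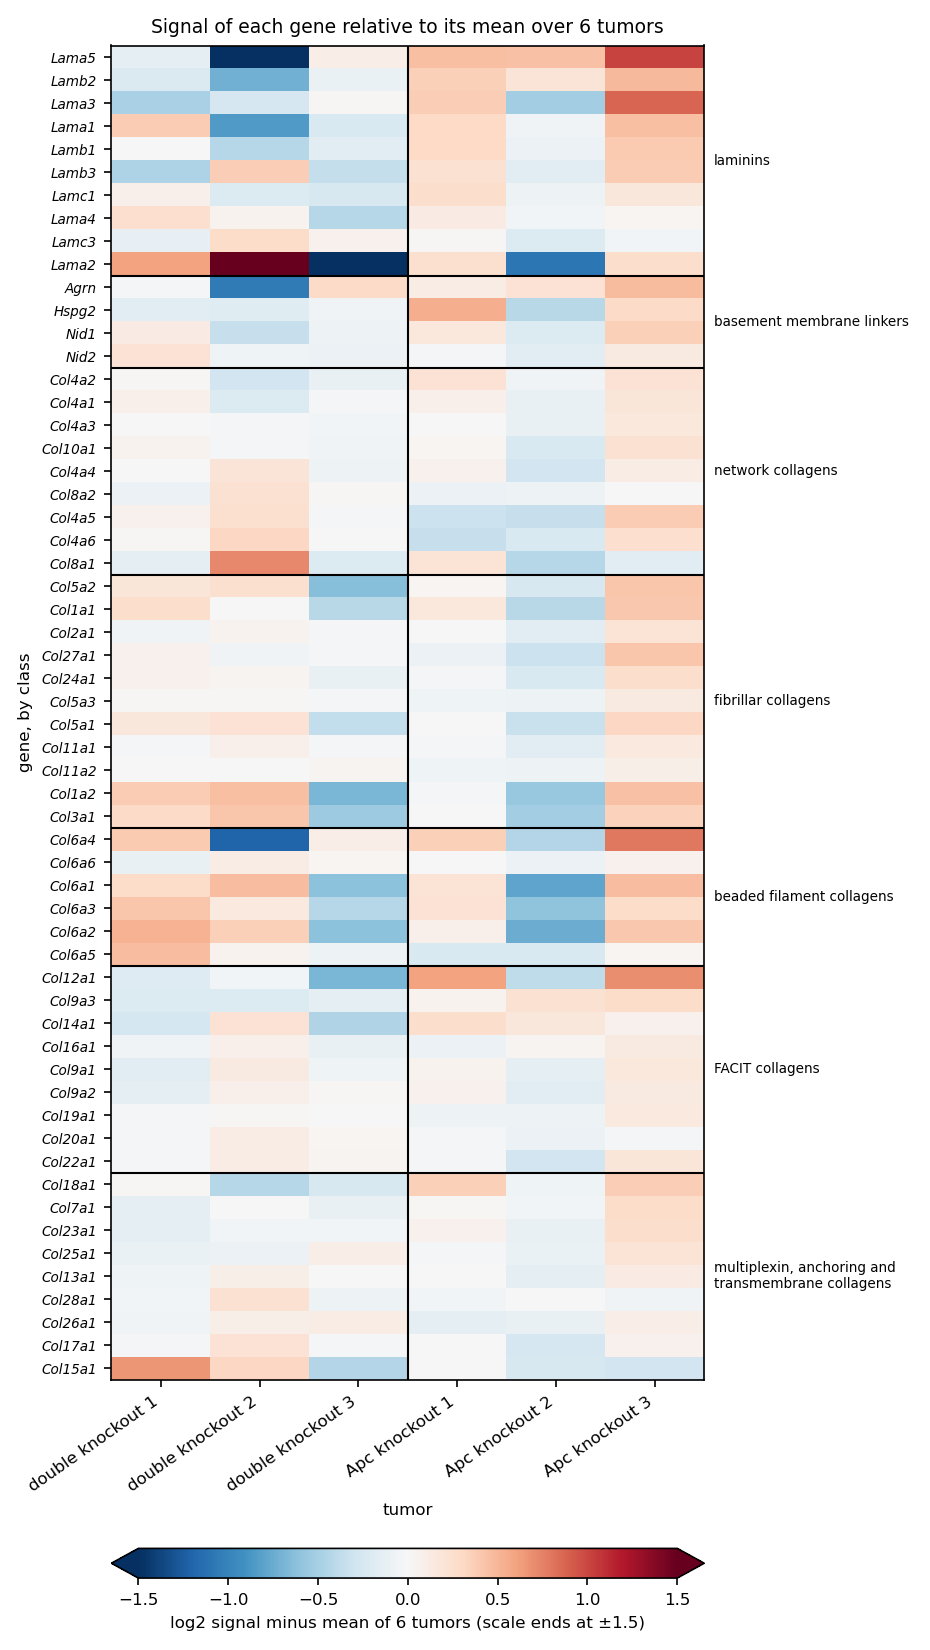
Log2 signal of each of the 58 genes (rows, by class) in each of the 6 tumors (columns) minus the mean of that gene over the 6 tumors, blue for lower and red for higher, with the color scale ending at ±1.5. Double knockout tumor 3 and Apc knockout tumor 2 are blue for Col1a1, Col1a2, Col3a1 and Col6a1 to Col6a3, whereas Lama5 and Lamb2 are red in all 3 Apc knockout tumors.

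Collagen VI, the beaded filament collagen at the edge of basement membranes, followed the fibrillar collagens in its 3 classical chains. Col6a2 was at 10.31, 10.15 and 9.17 in double knockout tumors and at 9.87, 9.04 and 10.20 in Apc knockout tumors, with the same pair of tumors at the bottom, and the difference was 0.18 (standard error 0.41). Col6a1, its neighbor on chromosome 10, and Col6a3 had differences of 0.08 and 0.09, and Col6a6 one of 0.02. Col6a4 was unlike them, at 9.81, 8.21 and 9.52 against 9.77, 8.98 and 10.21, with the minimum in double knockout tumor 2. Its difference of −0.47 (standard error 0.50) was 0.01 without that tumor. Col6a5, a chain of the same gene cluster on chromosome 9, was at 7.89, 7.48 and 7.36 against 7.20, 7.20 and 7.46 (difference 0.29, standard error 0.17), and here only Apc knockout tumor 3 reached into the range of the double knockout tumors.

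FACIT collagens, which sit on the surface of fibers, were lower for 7 of 9 members (5 after median centring) with a median of −0.06. Col9a3, a chain of type IX collagen, was at 8.06, 8.07 and 8.13 in double knockout tumors and at 8.32, 8.50 and 8.54 in Apc knockout tumors. Replicates lay close together in both groups, and the difference of −0.37 (standard error 0.10) was 1.29-fold (unadjusted p = 0.0114, adjusted p = 0.821, limma). The other chains of the same trimer, Col9a1 and Col9a2, differed by −0.06 and −0.03, and the FACIT collagens Col16a1, Col19a1 and Col22a1 by −0.06, 0.00 and 0.09. Col12a1, a FACIT collagen of loaded tissue, was at 9.92, 10.08 and 9.43 against 10.72, 9.74 and 10.82 (difference −0.61, standard error 0.33), with Apc knockout tumor 2 among the double knockout tumors. Col14a1, another fiber-associated collagen, was at 7.94, 8.42 and 7.76 against 8.47, 8.38 and 8.27 (difference −0.33, standard error 0.19). Col20a1 was the only member higher in every double knockout tumor (7.68, 7.80 and 7.72 against 7.68, 7.60 and 7.68, where the groups met to within rounding), by 0.08, which is under its standard error of 0.09. After median centring or quantile normalization its groups overlapped.

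Of the remaining collagens, Col18a1, the basement membrane multiplexin from which endostatin is cut, was at 9.59, 9.14 and 9.33 in double knockout tumors and at 9.93, 9.51 and 9.94 in Apc knockout tumors. Double knockout tumor 1 exceeded Apc knockout tumor 2 by a little, and the difference was −0.44 (standard error 0.18, unadjusted p = 0.0472, adjusted p = 0.821, limma). Col15a1, the other multiplexin, pointed the opposite way at 9.51, 9.16 and 8.41 against 8.84, 8.61 and 8.56 (difference 0.36, standard error 0.28), with both the highest and the lowest signal in double knockout tumors. Col7a1, which forms the anchoring fibrils under stratified epithelia, differed by −0.17 (standard error 0.12). The 6 other members of this class, among them the hemidesmosome collagen Col17a1 (0.12), had differences from −0.15 to 0.12.

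To compare the classes within a tumor, the signal of each gene was taken relative to its mean over the 6 tumors and the median over the class was used. For laminins these medians were −0.06, −0.23 and −0.20 in double knockout tumors against 0.28, −0.08 and 0.39 in Apc knockout tumors, so that Apc knockout tumor 2 lay among the double knockout tumors. For fibrillar collagens they were 0.06, 0.05 and −0.11 against −0.01, −0.24 and 0.31, and for network collagens 0.02, 0.19 and −0.04 against 0.02, −0.22 and 0.19. Neither collagen class separated the genotypes. Set against the fibrillar collagens of the same tumor, laminins were lower in all 3 double knockout tumors (−0.13, −0.28 and −0.09) and higher in all 3 Apc knockout tumors (0.29, 0.16 and 0.08). Against network collagens the values were −0.08, −0.41 and −0.16, and 0.26, 0.14 and 0.20. The network and fibrillar classes differed from each other by −0.12 to 0.14 with the genotypes mixed. These gaps were looked at after the data had been seen and have no test. The classes also differed in signal level and in median range over the tumors (1.02 for laminins, 0.68 for fibrillar and 0.47 for network collagens). The part of this in the gaps was not tested. With class means in place of medians the groups were also apart (−0.34 to −0.04 against 0.11 to 0.27 for laminins minus fibrillar collagens). For laminins minus network collagens they nearly met, at −0.333 to −0.015 against 0.050 to 0.283.

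**Figure D4:**
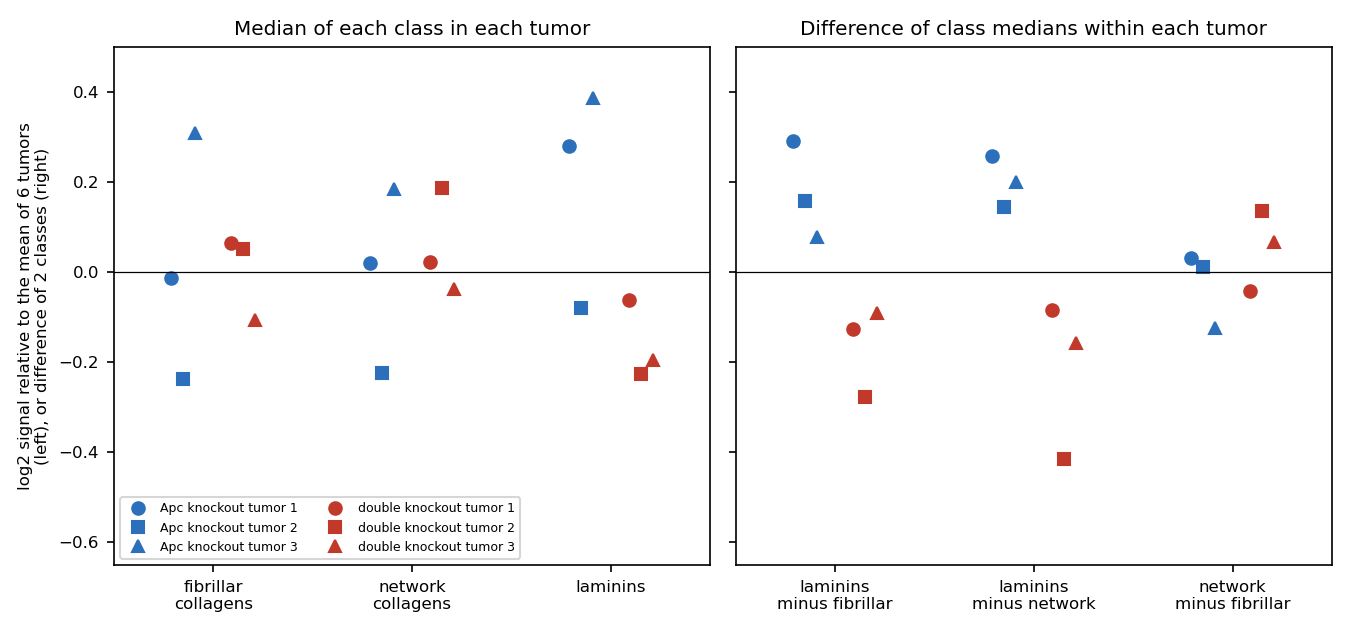
Left, the median over each class of the log2 signal relative to the mean of 6 tumors (vertical axis), 1 point per tumor with its number as the shape, Apc knockout in blue and double knockout in red. Right, the difference between 2 class medians in the same tumor: laminins minus fibrillar collagens lie between −0.28 and −0.09 in double knockout tumors and between 0.08 and 0.29 in Apc knockout tumors.

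Genes that process collagen were compared next. Of 24 folding, cleavage and crosslinking genes measured, 15 were lower and 9 higher. The median was −0.08, and 0 passed the adjusted threshold in limma. At an unadjusted p under 0.05, 3 were lower (12.5%, against 3.82% of all probe sets tested) and 0 higher, and the groups did not overlap for the same 3 (against 6.94% of all). Lox, the lysyl oxidase that starts the crosslinking of collagen and elastin, was at 9.65, 9.77 and 7.65 in double knockout tumors and at 10.60, 10.08 and 11.33 in Apc knockout tumors. It was lowest in double knockout tumor 3, and the difference was −1.64 (standard error 0.63, unadjusted p = 0.0396, adjusted p = 0.821, limma), or −0.96 without that tumor. Bmp1, which cuts the C-propeptide off fibrillar procollagens, was at 10.05, 9.55 and 9.98 against 10.54, 10.11 and 10.74 (−0.61, standard error 0.21). Adamts3, a procollagen N-proteinase, was at 8.84, 8.70 and 8.57 against 9.14, 8.96 and 9.04 (−0.34, standard error 0.12).

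Of 15 receptors for collagen and laminin, 8 were lower and 7 higher, the median was −0.01, and 0 were past the adjusted threshold in limma. Itga1, the α chain of an integrin that binds collagens and laminin, was at 10.05, 9.92 and 10.19 in double knockout tumors and at 10.38, 10.52 and 10.72 in Apc knockout tumors. The groups did not overlap, and the difference was −0.49 (standard error 0.13, unadjusted p = 0.0103, adjusted p = 0.821, limma). Itga1 was the only receptor without overlap, or 6.67% of the list against 6.94% of all probe sets tested. Bcam, which binds the α5 laminin chain, was at 9.51, 8.87 and 10.12 against 10.45, 9.52 and 10.27 (−0.58, standard error 0.38). Like Lama5 it was lowest in double knockout tumor 2, as were 5 of the 15 receptors and 28.3% of all probe sets tested. Ddr1, an epithelial collagen receptor kinase, differed by −0.29 (standard error 0.21). Itga6 and Itgb4, the laminin receptor of hemidesmosomes, differed by 0.09 (standard error 0.12) and −0.10 (standard error 0.15).

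Markers of the other cell types that a dissected tumor can hold were set beside these values, and none passed the adjusted threshold in limma. Of 10 fibroblast markers, 5 were lower and 5 higher, and the brightest, Vim, Dcn and Postn, differed by −0.50 (standard error 0.27), −0.57 (0.61) and 0.40 (0.76). Lum, the collagen-binding proteoglycan lumican, was picked out after its values had been seen and is also on the gene list of the study from these tumors. It was at 8.16, 8.28 and 7.93 in double knockout tumors and at 6.94, 7.36 and 6.82 in Apc knockout tumors, a difference of 1.08 (standard error 0.18). Of the smooth muscle markers 10 of 12 were higher, among them Acta2 by 0.59 (0.48) and Mylk by 0.39 (0.29), while Smtn differed by −0.07 (0.17). The median of that list went from 0.40 to −0.18 without double knockout tumor 2.

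Of 10 endothelial markers 5 were lower, with Cdh5 at −0.41 (standard error 0.35), Eng at −0.13 (0.20) and Emcn at 0.01 (0.20), and the summed signal was 12.26 to 12.54 in double knockout tumors against 12.21 to 12.73 in Apc knockout tumors. All 4 measured glial and Schwann cell markers were higher, Erbb3, which epithelium also makes, by 0.34 (0.18), Sox10 by 0.15 (0.14) and S100b by 0.15 (0.17). Their sums of 11.12 to 11.73 against 11.03 to 11.09 were carried mainly by Erbb3. Its means were 11.18 and 10.84, against 7.43 and 7.27 for Sox10, the next brightest. The groups did not overlap for Erbb3 and Gfap and overlapped for Sox10 and S100b. In the other marker lists they also did not overlap for the fibroblast markers Lum and Mfap5 and the epithelial marker Epcam, which were higher. The same was true of the epithelial marker Krt18 and the leukocyte marker Itgam, which were lower. Over all probe sets tested the shares without overlap were 5.25% higher and 6.94% lower. Of 9 leukocyte markers 5 were lower, with a list median of −0.38, Lyz2 at −0.42 (0.18), Cd74 at 0.25 (0.34) and Csf1r at 0.22 (0.29), and sums of 13.21 to 13.56 against 13.51 to 13.82. The lowest differences in that list, picked out after their values had been seen, were those of the neutrophil genes S100a9 (−1.84, standard error 0.69, unadjusted p = 0.0362 in limma) and S100a8 (−1.68, 0.78) and of the myeloid integrin chain Itgam (−0.58, 0.16, unadjusted p = 0.0101 in limma), whose groups did not overlap. Of 10 epithelial markers 7 were higher, with Lgals4 at 0.49 (0.28), Krt8 at 0.07 (0.14) and Krt18 at −0.41 (0.19). The part of any of these cell types in the laminin and collagen levels was not tested.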

How the data were processed

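Total RNA of 6 mouse tumors dissected by laser was hybridized to 6 arrays. The authors ran RMA in GeneSpring GX, which corrects background, equalizes the quantiles of the arrays and merges the probes of a set, and deposited log2 signals. The version of RMA is not given in the sources used here, and the table holds no detection calls, so that a set that lies in the background is not told from one that does not. Of 35556 probe sets, 21789 carried 1 symbol, 1621 several and 12146 none. The 60 sets of the 58 members all carried 1 symbol, all 58 genes were found in the RefSeq table of GRCm38.p6 by gene ID, and 0 symbols changed. For Col6a5 and Col6a6, the set with the higher mean over 6 tumors was used.

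The 19506 sets that carried a symbol and whose mean reached the 20th percentile (5.88) were compared between genotypes in R 4.3.3 with limma 3.58.1, using lmFit and eBayes with no covariates. Tests were two-sided, adjusted over all sets by Benjamini and Hochberg, and called at 0.05. All 58 members passed that filter. Array medians were 7.68 to 7.80. Confidence intervals are at 95% from this fit, and single genes also had an exact permutation test. The fit was tested on simulated data. Precision is limited by the number of arrays. Replicates were treated as independent tumors, and the labels do not state whether each came from a separate mouse. Same-numbered tumors of the 2 groups did not deviate together (correlations −0.20, −0.06 and 0.09).

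Genes were named by rule: an unadjusted p under 0.05, groups that did not overlap, the 3 largest differences and the 2 widest ranges of each class, and a fixed set of major chains. For processing enzymes and receptors the 3 smallest p were named, and for each marker list the 3 highest means. Named outside this rule were the receptors Itga6 and Itgb4. Among the markers, Myh11, Cdx2, Gfap, Lum, Mfap5, Epcam, Itgam, S100a8 and S100a9 were also named outside it. Members, lists and rules were chosen with earlier results of these data known. Alternatives were the unpaired t-test of the methods, no filter on level, a filter at the 40th percentile (7.15), median centring, a further quantile normalization, eBayes with trend and robust settings, a block for the replicate number, leaving out each tumor in turn, and averaging the probe sets of a gene. The gaps between classes, by medians and by means, were chosen after seeing the data. Scan dates and other batches are not given in the labels used here.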

Additional observations from a re-analysis of the deposited data

How the results depend on the processing

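No alternative gave a member past an adjusted p of 0.05. The medians of the 3 classes and of all members moved by less than the spread between tumors under every alternative run. Leaving out 1 of 3 tumors can hardly move a median by more than that spread, so those runs were no check on it. With a tumor left out, the medians lay between −0.50 and −0.20 for laminins. They lay between −0.12 and 0.11 for fibrillar and between −0.05 and 0.14 for network collagens. The number of members at an unadjusted p under 0.05, which was 3, was 5 with the replicate block and 2 to 7 with a tumor left out (5 without double knockout tumor 1 or 2, 7 without Apc knockout tumor 2). It was 2 with the unpaired t-test of the methods, with quantile normalization and with trend and robust eBayes. The replicate block changed no other call. The number of members whose groups did not overlap, which was 4, was 3 with median centring or quantile normalization. It was 4 to 14 with a tumor left out, where fewer tumors make overlap less likely. Of 28 named members, 20 kept their sign in every alternative run and 8 reversed, each on leaving out a tumor. Their differences with a tumor left out ranged from −0.33 to 0.084 for Col1a1, from −0.17 to 0.46 for Col1a2, from −0.12 to 0.41 for Col3a1, from −0.29 to 0.14 for Col5a2, from −0.15 to 0.53 for Col6a2, from −0.81 to 0.013 for Col6a4, from −0.038 to 0.42 for Col8a1 and from −0.29 to 1.28 for Lama2. Double knockout tumor 3 or Apc knockout tumor 2 set an end of the range for Col1a1, Col1a2, Col3a1, Col5a2, Col6a2, Col6a4 and Lama2, and double knockout tumor 2 for Col5a2, Col6a4, Col8a1 and Lama2. Some other members kept their sign but moved by over 1.5 times, among them the following. Without double knockout tumor 2 the difference was −0.65 for Lama5, −0.15 for Lama1, −0.14 for Agrn, −0.079 for Nid1, −0.56 for Lamb3 and −0.52 for Col14a1. Without Apc knockout tumor 2 it was −0.86 for Lama3, −0.55 for Hspg2, −0.95 for Col12a1 and 0.059 for Col4a5. It was −0.16 for Lama3 and −0.072 for Col7a1 without Apc knockout tumor 3, −0.068 for Hspg2 and 0.097 for Col4a6 without Apc knockout tumor 1, 0.12 for Col15a1, 0.14 for Col6a5 and −0.15 for Lamb3 without double knockout tumor 1, and 0.67 for Col15a1 and −0.19 for Col14a1 without double knockout tumor 3. The causes were not tested. With 3 tumors in a group, differences as wide as the intervals given remain possible for genes that did not pass, and sets with little signal over background, whose number is unknown here, compress the differences.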
